A study of Mus musculus with 40 samples.

Results

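Wild-type (WT) bone marrow-derived macrophages (BMDMs) were compared after 9 hr of lipopolysaccharide (LPS) with BMDMs of the same animals that had received no LPS. The comparison uses 8 of the 40 RNA-seq libraries of the series, namely the 4 libraries labelled WT untreated and the 4 labelled WT 9 hr, paired by the animal number. The donors were 4 male WT mice on a mixed C57BL/6J and 129 background, numbered 25, 69, 87 and 88, and animals 25 and 88 were listed in batch 1 and animals 69 and 87 in batch 2. Their marrow had been grown for 7 days in medium conditioned by L cells, a source of the growth factor M-CSF, which was then replaced by medium without it, and LPS of Escherichia coli was given at 10 ng/ml. The labels do not state when the untreated cells were collected, so 9 hr of LPS and the hours spent in the new medium cannot be told apart. The WT libraries at 1, 3 and 6 hr are used below to place the 9 hr values in time, and libraries labelled Cpeb4-/-, from 4 male animals of the same background with a germline deletion of the RNA-binding protein CPEB4, are set beside them at the end. Values are regularized log (rlog) expression levels on a log2 scale, so a difference of 1 is a 2-fold change of the transformed level. Fold changes and shares below are those of rlog values. They can differ from the changes in counts, since the transformation pulls values together.

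LPS is bound by CD14 and by TLR4 with its partner MD-2, and TLR4 signals through the adaptors MYD88 and TRIF to NF-kB, to MAP kinases and to IRF3. The early wave of cytokines and transcription factors is followed by interferon beta, which acts back on the cells through its receptor, and by inhibitors that end the signal. Activated macrophages are also known to slow their division and to shift their metabolism, so the mRNA population at 9 hr combines what was gained with what was lost.

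The libraries carried the transcripts of macrophages. All 12 macrophage markers were expressed, with a summed level of 19.2 to 19.5 (log2) in untreated and of 19.5 in every 9 hr library. The defining markers of other cells were low: Cd3d, Cd3e, Cd3g and Cd8a of T cells, Cd79a, Ms4a1 and Pax5 of B cells, all 6 NK cell markers, Ly6g and Elane of neutrophils and the 3 collagens of stromal cells were below the expression filter, and Mcpt4 and Tpsb2 of mast cells were at 0. Some marker sums moved with LPS without overlap, and their part in the results below was not tested. That of B cells fell from 10.4 to 11.4 down to 7.98 to 8.42 through Ighm (−2.83) and Cd79b (−1.31), and that of erythroid cells from 4.45 to 5.14 down to 3.55 to 3.63 through Epor (−2.36). That of stromal cells rose from 5.60 to 5.75 up to 7.96 to 8.34 through Pdgfrb (2.60) and Dcn (2.49). That of neutrophils rose from 6.16 to 7.12 up to 7.54 to 8.13 through S100a8 (1.80) and Camp (2.40), 2 of its 4 tested markers, while Ngp (−0.77) fell. That of dendritic cells rose from 5.79 to 6.42 up to 6.67 to 6.93, with Ccr9 (1.04) the largest rise. In bulk RNA, fewer cells of a type and less RNA per cell cannot be told apart. Sequencing depth is not held in a table of rlog values and is unknown here. Replicates correlated at 0.995 to 0.998 within the untreated group and at 0.997 to 0.998 within the 9 hr group, across genes.

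The rlog transformation pulls the values of a gene toward each other where its counts are low or very variable between libraries. Among the 337 genes that were higher by at least 2 at 9 hr, 56 (16.6%) had a standard deviation in the untreated group below 0.25 times what counting error alone would give at the printed level, against 2.49% of all 13077 genes. Il1b is an example, with an untreated level of 12.35 in 3 animals and 12.36 in the fourth. Counts were not analysed here, so by how much such differences depart from the change in counts was not tested, and a spread below counting error is not a measure of the spread between animals.

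Of the 27179 genes in the table, 13077 had a mean rlog of at least 2.32 (the log2 of 5) over the 8 libraries and were tested. At 9 hr 4931 genes (37.7% of those tested) were higher and 4944 (37.8%) were lower than in untreated BMDMs, by limma with the animal as a block and a Benjamini-Hochberg adjusted p under 0.05. With a difference of at least 1 as well, 1120 genes (8.56%) were higher and 1411 (10.8%) were lower. Which direction held more genes at this size depended on the scaling, since centring each library on its median gave 1304 higher and 1194 lower. At a difference of at least 2 337 genes were higher and 297 lower, and at 4 or more there were 24 against 3. The values of the 4 untreated and the 4 treated libraries did not overlap for 4487 genes higher at 9 hr (34.3%) and for 4365 genes lower at 9 hr (33.4%). This held for 1119 of the 1120 genes that gained at least 1 and for 1407 of the 1411 that lost at least 1, and all of them had the same sign in both batches. Both sets were chosen by the size of the change in these same 8 libraries, which all but fixed these counts. The test reached far below a 2-fold change: 4338 calls (43.9%) were of a difference under 0.5, with a median standard error of 0.0683 over all genes. The centring shifted all differences by 0.114 and moved the share of calls that were rises from 49.9% to 59.3%, so small changes in one direction depend on the scaling.

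**Figure D1:**
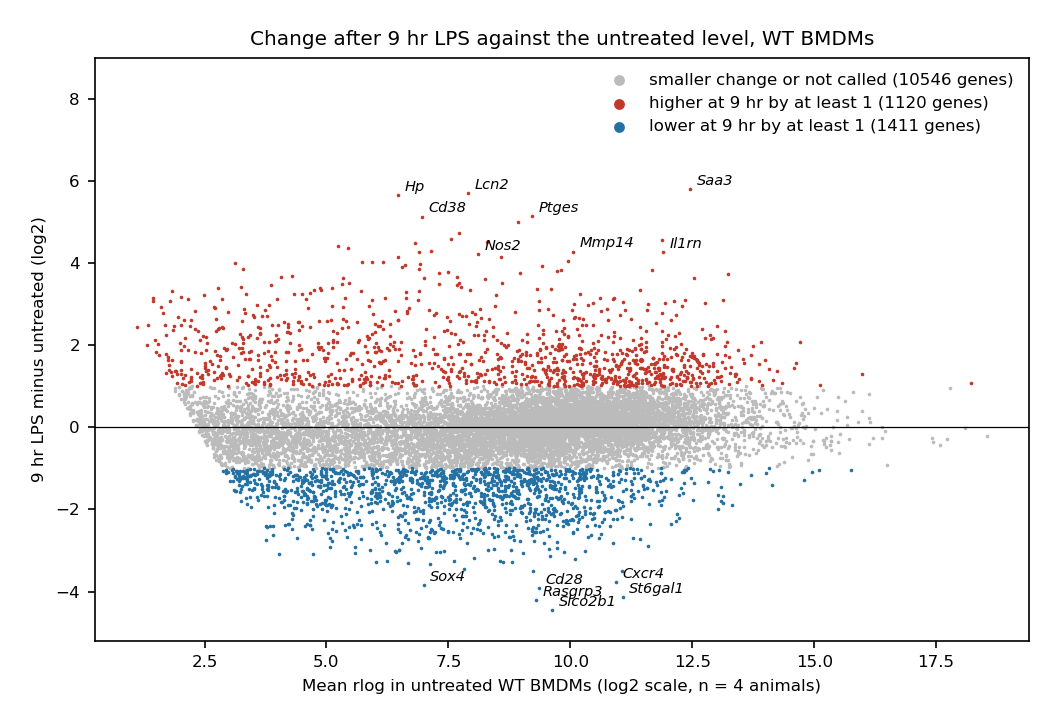
Change after 9 hr of LPS (log2, vertical axis) against the mean rlog in untreated WT BMDMs (horizontal axis) for the 13077 tested genes, with the 1120 genes higher by at least 1 in red and the 1411 lower by at least 1 in blue. The highest points, near a change of 6, are genes of low or middle untreated level and Saa3, and the empty lower left corner is set by the filter on mean expression.

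The gained and the lost genes had different untreated medians, a description with no test. Both sets depend on the filter, which used the mean over both groups. The 1120 genes higher by at least 1 rose from a median rlog of 8.59 to 10.61, and 58 of them were below the filter level without LPS. The 1411 genes lower by at least 1 started at a median of 7.71 and ended at 6.05, and 102 of them were below the filter level at 9 hr. Most were protein coding, 1040 of the gained and 1293 of the lost genes, with 38 and 78 long non-coding RNAs.

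The largest rise was that of Saa3 (chr7:46711998-46719615, mm10), which encodes an acute-phase protein made by macrophages. Its rlog was 12.43, 12.48, 12.46 and 12.47 in untreated BMDMs of animals 25, 69, 87 and 88, and 18.22, 18.38, 18.29 and 18.14 after 9 hr. The difference of 5.79 (standard error [SE] 0.0553, limma adjusted p 2.12e-14) is a 55.5-fold rise. As a share of the summed linear values of all genes, Saa3 went from 0.0254% ± 0.000492 to 1.09% ± 0.0606 (mean ± SD, n = 4), the fourth highest share at 9 hr. The 3 genes above it were Fth1, the ferritin heavy chain (1.37% to 2.24%), Actb, the cytoskeletal actin (1.02% to 1.52%), and Lyz2, the macrophage lysozyme (1.72% to 1.13%).

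Other genes of the acute phase and of metal withholding rose as steeply. Lcn2 (chr2:32384637-32387739), encoding a protein that captures bacterial siderophores, went from 7.93, 7.96, 7.84 and 7.87 to 13.54, 13.71, 13.59 and 13.53, a 51.7-fold rise (difference 5.69, SE 0.0493, adjusted p 2.12e-14). Hp (chr8:109575128-109579172), which encodes the haemoglobin carrier haptoglobin, went from 6.30, 6.58, 6.48 and 6.55 to 12.03, 12.08, 12.13 and 12.25 (difference 5.65, SE 0.0591). In each of these genes every treated library lay above every untreated one by more than 5. Cfb (4.99), the complement factor B, and Cp (3.80), the ferroxidase ceruloplasmin, also rose.

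Ptges (chr2:30889471-30931020), the inducible prostaglandin E synthase, had 9.23, 9.22, 9.18 and 9.21 untreated and 14.33, 14.46, 14.35 and 14.27 at 9 hr, a difference of 5.14 (SE 0.0483, adjusted p 2.12e-14). Cd38 (chr5:43868809-43912374), an ectoenzyme that consumes NAD, rose by 5.13 (SE 0.0601). Marco, a scavenger receptor that binds bacteria, rose by 4.52, from 8.01, 8.17, 8.61 and 8.34 to 12.60, 12.69, 13.47 and 12.45, with animal 87 highest in both groups. The rest of the 15 largest rises were Slfn4 (4.73), Lipg (4.58), the chemokine Ccl5 (4.56), Tarm1 (4.48), Slamf1 (4.40), the collagen cross-linking enzyme Lox (4.35), the formyl peptide receptor Fpr1 (4.29) and the histamine-forming enzyme Hdc (4.28). Slfn4 belongs to a family of near-identical genes, so its value may be shared with relatives.

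**Figure D2:**
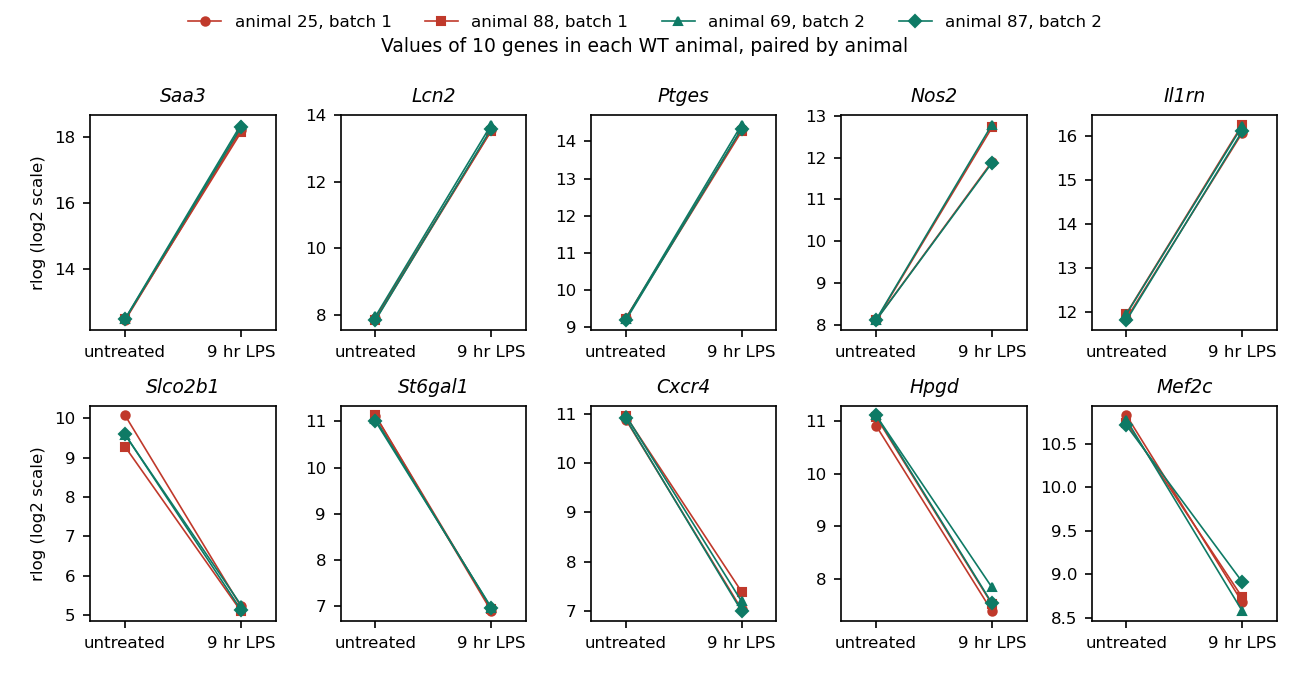
rlog (log2 scale, a separate axis for each gene) of 10 genes in untreated BMDMs and after 9 hr of LPS, with a line for each of the 4 WT animals, batch 1 in red and batch 2 in green. The lines of Saa3, Lcn2, Ptges and Il1rn nearly coincide, whereas Nos2 at 9 hr falls into values of 11.9 (animals 25 and 87) and of 12.7 to 12.8 (animals 69 and 88), one animal of each batch in each pair.

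Antimicrobial enzymes were among the genes with large rises. Nos2, the inducible nitric oxide synthase, went from 8.11, 8.12, 8.10 and 8.10 to 11.91, 12.80, 11.88 and 12.73, a difference of 4.22 (SE 0.139, adjusted p 1.66e-10). The treated animals spread over almost 1 log2 unit, and no untreated value came near them. Other genes of arginine metabolism also rose: Slc7a2, the arginine importer, by 3.92, Ass1, which regenerates arginine, by 3.09, and Gch1, needed for the cofactor of nitric oxide synthases, by 1.71. The arginases Arg2 and Arg1, which break down arginine, rose by 2.93 and 1.83. Of the 14 genes of nitric oxide, arginine and polyamine metabolism 8 rose and 2 fell (7 and 4 after quantile normalization), against 37.7% of all tested genes higher and 37.8% lower, the spermine synthase Sms (−0.66) and Oat. Acod1, which makes itaconate from a citric acid cycle intermediate, rose from 13.22, 13.24, 13.23 and 13.25 to 16.91, 17.08, 16.91 and 16.97 (difference 3.73, SE 0.0521). Of the 8 NADPH oxidase genes 6 rose and none fell (4 and 3 after quantile normalization), led by the catalytic subunit Cybb (1.57) and Rac2 (1.29), and Sod2, the mitochondrial superoxide dismutase, rose by 3.02.

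Most pro-inflammatory cytokine mRNAs were still above their untreated level at 9 hr. Of 22 tested, 20 were higher, 15 of them by at least 1, and 1 was lower (Tslp, −0.67), with a median difference of 1.84. The median over all genes tested was −0.01, and the counts of all lists are set against the 37.7% and 37.8% of tested genes that were higher and lower. Csf3 (3.69), Il1b (3.09), Il1a (2.89), Il12b (2.19), Il6 (2.13), Tnf (1.82) and Ifnb1 (1.46) were called higher. Lif (0.35) was not called. Il1b had 12.35, 12.35, 12.36 and 12.35 untreated and 15.44, 15.75, 15.48 and 15.11 at 9 hr (SE 0.0814, adjusted p 3.23e-11), and Tnf had 12.48, 12.53, 12.49 and 12.45 and then 14.35, 14.56, 14.19 and 14.11 (SE 0.0627, adjusted p 2.37e-10). Animal 69 was the highest of the 4 treated libraries for both, as it was for 15 of the 22 cytokines and for 30.1% of all genes tested.

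Chemokine genes rose unevenly. Of 13 CC chemokines 11 were higher, all by at least 1, among them Ccl5 (4.56), Ccl8 (2.91), Ccl17 (2.85), Ccl7 (2.85) and Ccl2 (1.92), whereas Ccl6 (0.00) and Ccl25 (0.03) were not called. Of the 10 CXC chemokines tested 7 were higher and Cxcl14 (−1.32) was lower (6 and 3 after quantile normalization). The T cell attractants Cxcl9 (4.14), Cxcl11 (3.63) and Cxcl10 (2.24), which answer to interferons, had larger differences than the neutrophil attractants Cxcl3 (1.54), Cxcl2 (1.33) and Cxcl1 (0.80). Receptors for attractants moved in both directions: Fpr1 (4.29), Fpr2 (3.76), Ccrl2 (2.03) and Ccr7 (1.47) rose, while Cxcr4 (−3.78), Cxcr3 (−2.67), Cx3cr1 (−1.23) and Ccr2 (−1.02) fell.

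Interferon-stimulated genes were higher without exception among the 32 tested, each by at least 1, with a median difference of 2.10. The largest were Ifi44 (3.61), Isg20 (3.51), Isg15 (3.35), Oasl1 (3.24), Rsad2 (3.10) and Irf7 (3.08), the factor that amplifies interferon production. Ifi44 had 8.33, 8.11, 8.28 and 8.27 untreated and 11.83, 11.84, 11.90 and 11.88 at 9 hr, with no overlap (SE 0.0540, adjusted p 5.26e-13). Of 15 GTPases of the GBP and IRG families, which attack the vacuoles of intracellular microbes, 14 rose by at least 1, led by Gbp6 (3.96) and Gbp2 (3.84), and Gbp8 (−0.27) was not called. Several of these genes (the Gbp, Oas1 and Tgtp families) have near-identical copies that can share reads.

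Stretches of promoter that hold 9 letters typical of an interferon response element (GAAANNGAA, searched on both strands) are shown for the 4 interferon-stimulated genes with the largest rises among those whose promoter held the letters. They come from RefSeq windows of 250 bases before to 50 after the start of transcription (GRCm38.p6), run 5′ to 3′ on the strand of the gene, and carry the matched letters, or their reverse complement, in capitals.
Ifi44, chr3:151749894-151749923, minus strand: aaagtttctcTTCATTTTCtacaggcttgg
Isg15, chr4:156200877-156200906, minus strand: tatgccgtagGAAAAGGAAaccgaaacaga
Rsad2, chr12:26456552-26456581, minus strand: tggtccaactTTCATTTTCagaaaacagaa
Ifit1, chr19:34640770-34640799, plus strand: aactgcaggcTTCAGTTTCactttccagtc
The letters were present in 14 of the 23 promoters of the list that could be matched (60.9%), in 15.3% of the 857 matched genes higher by at least 1, in 6.11% of the 1064 lower by at least 1, in 7.35% of 10102 matched tested genes and in 8.57% of all 27025 promoters of the table.

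An NF-kB letter pattern (GGGANTTTC or GGGANTTCC, both strands) is shown in the same way for the 4 cytokine and chemokine genes with the largest rises that held it.
Cxcl9, chr5:92328214-92328243, minus strand: agaacatgcaGAAATTCCCtgggatctgag
Cxcl10, chr5:92348973-92349002, minus strand: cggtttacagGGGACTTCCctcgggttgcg
Il6, chr5:30013060-30013089, plus strand: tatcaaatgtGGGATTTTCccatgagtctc
Cxcl3, chr5:90786018-90786047, plus strand: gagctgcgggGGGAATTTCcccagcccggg
It was found in 2 of 15 promoters of pro-inflammatory cytokines (13.3%), in 1 of 8 of CC chemokines (12.5%) and in 5 of 8 of CXC chemokines (62.5%), in 6 of 26 promoters of negative regulators (23.1%), in 5.37% of genes higher by at least 1, in 2.35% of genes lower by at least 1, in 3.35% of tested genes and in 2.81% of all promoters. A match of letters is a description of the sequence and not a binding site.

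Inhibitors of the LPS signal were themselves high at 9 hr. Of 30 negative regulators 24 were higher, 18 of them by at least 1, and 4 were lower, with a median difference of 1.31. Il1rn, the decoy ligand of the IL-1 receptor, rose most (difference 4.26, SE 0.0462, adjusted p 4.95e-14), from 11.86, 11.96, 11.82 and 11.97 to 16.07, 16.22, 16.11 and 16.25. Socs3 (3.12), Cd274 (3.05), Irak3 (2.48), Socs1 (2.47), Tnfaip3 (1.71), Zc3h12a (1.39), Dusp1 (1.39) and Zfp36 (1.12) followed. Il10 was close to its untreated level (8.94, 8.76, 8.97 and 8.94 against 9.15, 9.40, 9.13 and 8.92), its groups overlapped, and its difference of 0.25 (SE 0.0915, adjusted p 0.0285) was no longer called without animal 69 (0.12). Zfp36l1, a relative of Zfp36 that also destabilizes mRNAs, fell by 2.72 (11.47, 11.59, 11.29 and 11.34 to 8.74, 8.64, 8.71 and 8.71), and Sigirr, an inhibitory receptor of the IL-1 receptor family, fell by 1.86.

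The genes that sense LPS moved in both directions. Of 31 Toll-like receptors and adaptors 23 rose and 5 fell, with a median of 0.41. Tlr4 itself fell by 0.34 (10.64, 10.44, 10.36 and 10.60 to 10.12, 10.05, 10.18 and 10.35, adjusted p 0.000411), its co-receptor Cd14 rose by 1.02, and Tlr5, the flagellin receptor, fell by 1.80. Tlr5 was low from the start, with an untreated mean of 3.24 (SD 0.472, counting error 0.469). At 9 hr its mean was below the filter level of 2.32. Among NF-kB, IRF and STAT factors 15 of 19 rose and 1 fell (11 and 4 after quantile normalization), with Irf7 (3.08), Stat2 (1.96) and Nfkb2 (1.52) among the largest, and with Stat4 at −0.89. Of 29 receptors for cytokines and growth factors 18 rose, among them Il4ra (2.26) and Csf3r (2.21), and 7 fell, among them Lifr (−2.06). Csf1r, the receptor for M-CSF that macrophages need to survive, fell by 0.28 (SE 0.0549) and kept a mean of 15.43.

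Genes that link macrophages to T cells rose on the side of MHC class I. All 20 genes of class I presentation were higher (16, with 3 lower, after quantile normalization), 12 by at least 1, with Psme2 (1.90), H2-Q7 (1.90) and Nlrc5 (1.84), the activator of class I genes, largest. Reads of the H2 genes may be shared between copies. Of the 12 class II genes 3 rose and 5 fell (1 and 8 after quantile normalization): Ciita, the class II activator, fell by 1.75 (7.55, 7.47, 7.66 and 7.94 to 5.79, 5.92, 5.89 and 6.02), H2-Ob (0.76) and H2-Ab1 (0.51) rose, and H2-Aa (−0.02) was not called. Of 20 costimulatory and checkpoint molecules 14 rose and 4 fell, with Slamf1 (4.40), Tnfrsf9 (3.34), Cd274 (3.05) and Cd40 (2.63) at one end and Havcr2 (−2.58) at the other. Cd80 (−0.49) fell while Cd86 (1.75) rose. Of 29 proteasome genes 27 rose, with a median of 0.59, and this count went to 20 higher and 4 lower after quantile normalization.

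Genes for the uptake of particles moved in both directions. Of 21 Fc, complement and phagocytic receptor genes 14 rose and 5 fell, which became 11 and 10 after quantile normalization. The rises included Cfb (4.99), Fcgr2b (3.01), Fcgr4 (2.89), C3 (2.54) and Fcgr1 (2.07), and the falls Cd93 (−0.77). Of 25 receptors and bridging proteins for scavenging and for apoptotic cells 7 rose and 16 fell, with a median of −0.39. Marco (4.52), Msr1 (2.18) and Olr1 (1.66) rose. Itgb3 (−2.70), Cd163 (−2.17), Gas6 (−1.99), Mrc1 (−1.37), Trem2 (−1.28) and Mertk (−0.69), several of which mark resident or healing macrophages, fell. In matrix turnover 14 of 20 genes rose, among them the membrane-bound collagenase Mmp14 (4.28, from 10.07, 10.11, 10.01 and 10.04 to 14.37, 14.47, 14.27 and 14.23) and Serpinb2 (3.85), whereas the plasminogen activator Plau (−1.85) and the inhibitor Timp2 (−1.08) fell.

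The enzymes of the prostaglandin and leukotriene pathway divided into a gained and a lost branch. Of 17 genes 7 rose and 9 fell, with 5 changes of at least 1 in each direction. The inducible path to prostaglandin E was higher, with Pla2g4a (1.92), which frees arachidonic acid, Ptgs2 (2.61), the inducible cyclooxygenase, and Ptges (5.14). The enzyme that degrades prostaglandins, Hpgd (chr8:56294552-56321046), fell by 3.50 (SE 0.0649, adjusted p 2.57e-12), from 10.92, 11.11, 11.11 and 11.09 to 7.38, 7.83, 7.53 and 7.51. The constitutive cyclooxygenase Ptgs1 (−1.96) and the leukotriene enzymes Alox5 (−2.27), Ltc4s (−1.75), Alox5ap (−1.33) and Lta4h (−0.93) also fell.

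The largest fall was that of Slco2b1 (chr7:99657804-99711340), an organic anion transporter, from 10.07, 9.58, 9.59 and 9.28 to 5.22, 5.26, 5.14 and 5.10, a difference of −4.45 (SE 0.104, adjusted p 1.37e-11) or a 21.9-fold loss. Rasgrp3 (chr17:75435870-75529054), an activator of RAS and RAP proteins, fell by 4.21, from 9.17, 9.68, 8.99 and 9.38 to 5.07, 5.03, 5.15 and 5.11. St6gal1 (chr16:23224729-23360350), the enzyme that adds sialic acid to surface glycans, fell by 4.13, from 11.12, 11.05, 11.01 and 11.13 to 6.90, 6.96, 6.97 and 6.94 (SE 0.0601, adjusted p 4.84e-13). The treated values of Slco2b1 and Rasgrp3 had SDs of 0.0726 and 0.0508, smaller than those of the untreated values (0.329 and 0.299). At such a low level counting error alone gives more, for example 0.235 at 5.23 (untreated Slamf1). This closeness is thus not a measure of the spread between animals. No untreated value of these 3 genes was within 3 of a treated one.

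Further surface and signalling genes were among the 15 largest falls. Cxcr4 (chr1:128588199-128592299), the receptor that retains cells in the marrow, went from 10.89, 10.97, 10.91 and 10.96 to 7.03, 7.19, 6.99 and 7.39 (difference −3.78, SE 0.0674). Cd28, best known from T cells, fell by 3.92 (9.56, 8.95, 9.19 and 9.76 to 5.35, 5.38, 5.41 and 5.64). The T cell markers Cd3d, Cd3e, Cd3g and Cd8a were below the filter. Cd4 and Lck, the 2 others of that list, passed it, 1 called higher (1.60) and 1 lower (−1.13). Which cells the Cd28 mRNA came from was not tested. Sox4 (−3.85), Zfyve28 (−3.50), Gpr34 (−3.45), the IL-33 receptor Il1rl1 (−3.34), the translational repressor Nanos1 (−3.29), Ankle1 (−3.28), the lipase inhibitor Angptl4 (−3.27), Frat2 (−3.25) and Cmah (−3.25), which converts sialic acids, complete them. Sox4, Il1rl1, Angptl4 and Cmah ended below a mean rlog of 4.

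The lists with the lowest medians were those of cell division. All 32 S phase genes and all 35 genes of G2 and mitosis were lower, 22 and 31 of them by at least 1, with medians of −1.31 and −1.85. In S phase the nucleotide enzymes Dut (−2.97) and Rrm2 (−2.63) and the helicase subunit Mcm7 (−2.22) fell most, and Pcna (−0.48) and E2f1 (−0.41) least. Dut had 9.51, 9.58, 9.83 and 9.34 untreated and 6.66, 6.47, 6.62 and 6.63 at 9 hr. In mitosis Kif23 (−2.69), Cenpf (−2.48), Anln (−2.28) and Ccna2 (−2.24) led, and Kif23, a kinesin of the cleavage furrow, went from 10.68, 10.58, 10.56 and 10.54 to 7.83, 7.88, 7.97 and 7.95 (SE 0.0625, adjusted p 1.34e-11). Animal 87 was the highest treated library for 33 of the 35 genes of G2 and mitosis.

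DNA repair genes fell with them, 25 of 28, among them the uracil glycosylase Ung (−3.18), Neil3 (−2.77) and Brca2 (−2.27), and Tdg (0.42) rose. Among 18 regulators of the cycle 11 fell and 5 rose (12 and 4 after quantile normalization), with a median of −0.49. E2f2 (−2.82), Cdkn2c (−2.14) and Ccnd1 (−0.94) fell, whereas the D cyclins Ccnd2 (2.43) and Ccnd3 (1.29) and the inhibitor Cdkn1a (0.49) rose.

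In the promoters of the mitotic genes 2 letter patterns were counted, and these are shown for the 4 genes with the largest falls that held each. The first is TTTGAA, the cell cycle homology region (CHR), on either strand.
Kif23, chr9:61946780-61946809, minus strand: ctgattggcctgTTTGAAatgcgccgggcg
Cenpf, chr1:189688067-189688096, minus strand: ggcggcgggcagTTTGAAtcgctcgtgctg
Anln, chr9:22389168-22389197, minus strand: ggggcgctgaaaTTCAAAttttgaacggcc
Kif2c, chr4:117178858-117178887, minus strand: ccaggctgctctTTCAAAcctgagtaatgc
The second is CCAAT, again on either strand, and in Kif23 its stretch overlaps that of the CHR.
Kif23, chr9:61946789-61946818, minus strand: aggcggccgctgATTGGcctgtttgaaatg
Cenpf, chr1:189688201-189688230, minus strand: cgtccaaaagggCCAATcagaggcggctca
Ncapd2, chr6:125191746-125191775, minus strand: cccggggctgtgATTGGttggcttctccag
Cdc20, chr4:118437379-118437408, minus strand: tcagtgtagcgaCCAATcggcaagggcgac
The CHR letters were in 23 of 29 matched promoters of the list (79.3%), against 3 of 26 of S phase genes (11.5%), 16.3% of genes lower by at least 1, 1216 of 10102 tested genes and 18.1% of all promoters. CCAAT was in 24 of 29 (82.8%), in 16 of 26 of S phase genes (61.5%), in 41.9% of genes lower by at least 1, in 39.0% of tested genes and in 37.9% of all promoters.

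**Figure D3:**
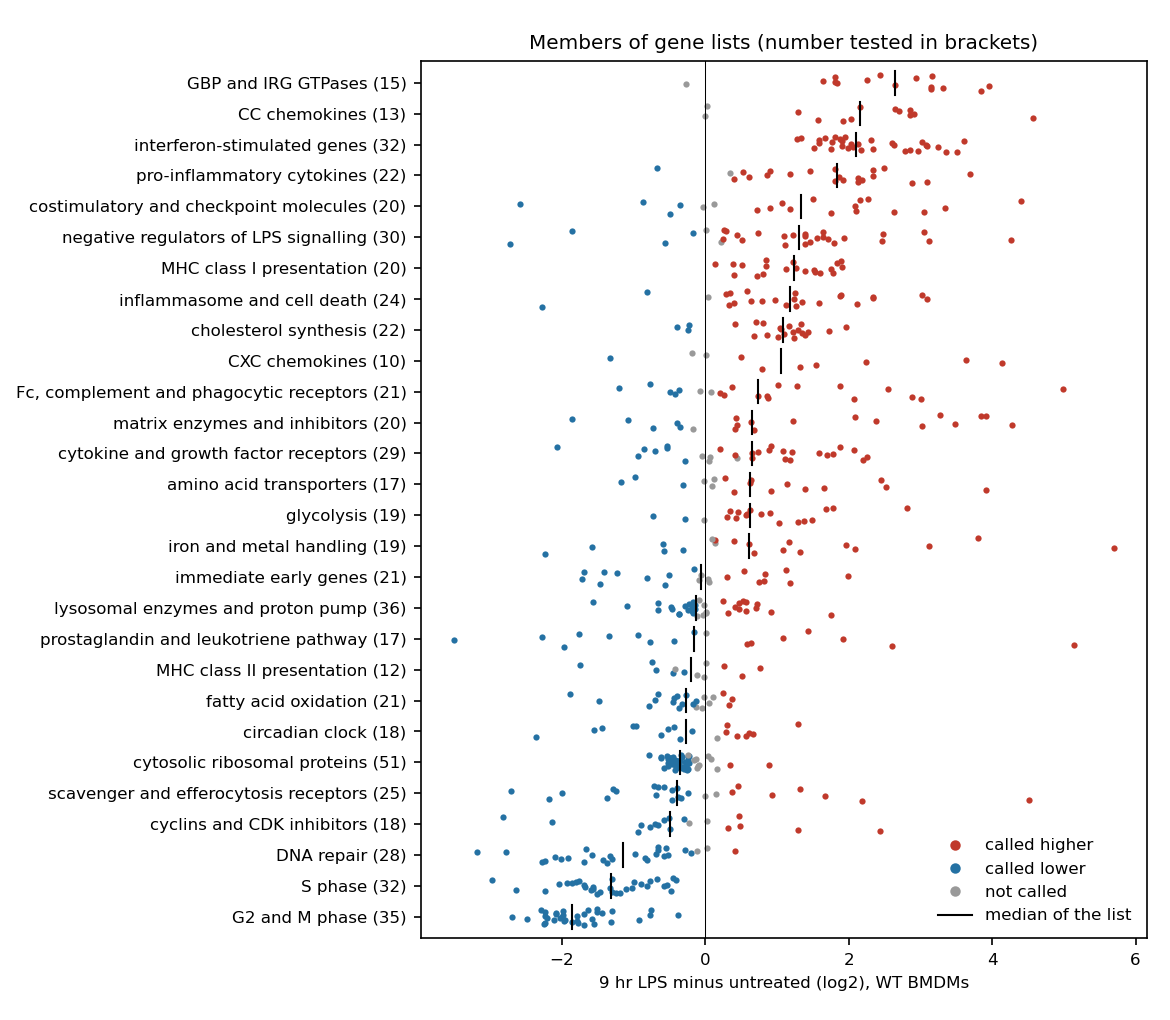
Change after 9 hr of LPS (log2, horizontal axis) of every tested member of 28 gene lists, the 16 with the highest and the 12 with the lowest medians of 47, with 1 point a gene, colours for the call and a black bar for the median of the list. All points of G2 and M phase lie left of 0 and all points of the interferon-stimulated genes right of 1, whereas the points of the prostaglandin and leukotriene list spread from −3.50 to 5.14.

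Factors that shape macrophage identity changed one by one. Of 17 tested 9 rose and 6 fell, but 5 rose and 8 fell after quantile normalization. Mef2c fell by 2.04 (10.83, 10.78, 10.71 and 10.75 to 8.68, 8.57, 8.91 and 8.73, adjusted p 1.93e-10), Pparg by 1.88 and Cebpa by 1.73, while Nr1h3 (1.76), Cebpb (1.74) and Spi1 (0.64) rose. Klf2, which restrains inflammatory genes, fell by 1.41. Among 21 immediate early genes 8 were above and 9 below their untreated level (7 and 12 after quantile normalization): Ier3 (2.00) was higher, and Egr2 (−1.72), Klf4 (−1.69), Fosb (−1.46), Myc (−1.23), Egr3 (−0.81) and Fos (−0.56) were lower.

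In metabolism, most mRNAs of glycolysis and of cholesterol synthesis rose and most mRNAs of fatty acid oxidation fell. Of 19 glycolytic genes 16 rose and 2 fell (10 and 4 after quantile normalization), with Pfkfb3 (2.82), the lactate exporter Slc16a3 (1.78) and the glucose importer Slc2a1 (1.69) highest and Aldoc (−0.73) lowest. Gapdh, often taken as a reference gene, was higher by 0.78 (9.39, 9.34, 9.18 and 9.50 to 10.08, 10.10, 10.11 and 10.25), and its pseudogenes can share its reads. Hif1a rose by 1.65, while Vegfa, one of its targets, was lower by 1.02 (9.97, 10.34, 9.69 and 9.67 to 8.63, 9.18, 8.71 and 9.08). Of 22 genes of cholesterol synthesis 19 rose, 14 by at least 1, among them Hsd17b7 (1.96), Lss (1.72) and Hmgcs1 (1.24), and Ebp (−0.40), Tm7sf2 (−0.24) and Dhcr7 (−0.22) fell. Of 21 genes of fatty acid oxidation 13 fell, such as Hadh (−1.48) and Acadm (−0.78), and 3 rose, such as Eci2 (0.38), with 11 falls and 5 rises after centring. These changes were mostly small, with a median of −0.27 and 2 falls of at least 1. In the list of the citric acid cycle and itaconate 12 of 24 genes rose and 6 fell (16 and 6 after centring, 5 and 14 after quantile normalization). Idh2 fell most, by 1.38 (10.75, 10.76, 10.94 and 10.83 to 9.49, 9.35, 9.45 and 9.45). Oxidative phosphorylation as a list did not have a direction of its own: 8 of 37 genes rose, led by Atp5b (0.51), and 9 fell, led by Ndufb10 (−0.42), but this became 13 and 4 after centring on the median and 1 and 24 after quantile normalization, with Atp5b at −0.08 there.

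Iron, redox and amino acid genes had members at both ends. The iron exporter Slc40a1 fell by 2.23 (11.11, 10.69, 10.95 and 11.10 to 8.19, 8.94, 8.66 and 9.15), and Fth1 (1.08), Hmox1 (2.08), Steap4 (3.12) and Lcn2 (5.69) rose, 12 of the 19 genes in all. Of 23 antioxidant genes 13 rose, among them Slc7a11 (2.51) and Prdx5 (2.35), and 6 fell, among them Gpx1 (−1.40) and Txnip (−0.81), whereas 9 rose and 9 fell after quantile normalization. Of 17 amino acid transporters 11 rose, led by Slc7a2, and Slc1a5 (−1.18), the glutamine importer, fell. Of 36 lysosomal genes 12 rose, led by Ctsc (1.75), and 18 fell, led by the proton pump subunit Atp6v0d2 (−1.56), with 8 falls after centring and 24 after quantile normalization.

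The genes of the translation machinery differed by list. Of 51 ribosomal protein genes 40 fell and 2 rose (30 and 3 after centring, 39 and 5 after quantile normalization), with a median of −0.35. Rpsa fell by 0.78 and Rpl24 rose by 0.89, but ribosomal protein genes have many pseudogenes that can share their reads. Of 27 translation factors 15 rose and 7 fell, with a median of 0.16, but 4 rose and 13 fell after quantile normalization. Of 35 ribosome biogenesis genes 17 rose and 10 fell (22 and 6 after centring), none by as much as 1. Among the translation factors, Eef2k, the kinase that halts elongation, fell by 2.60 (8.46, 8.25, 8.39 and 8.44 to 5.64, 5.54, 6.11 and 5.87) and Pdcd4, an inhibitor of initiation, fell by 2.44, and Eif4g2 rose by 1.44. Among regulators of mRNA decay and polyadenylation Cpeb4 rose by 1.34 (SE 0.138, adjusted p 3.30e-06) and Cpeb1 fell by 2.38.

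Genes of cell death and of the inflammasome were higher in 21 of 24 cases, among them Mlkl (2.34), Casp1 (1.59), Casp4 (1.35) and Nlrp3 (1.27), and Nlrp1b (−2.28) and Txnip fell. In the BCL2 family 11 of 19 genes rose and 7 fell. The pro-death Bmf (−2.16) and Bik (−1.34) were among the falls, and Bcl2a1d, a gene with near-identical copies, rose by 2.59. Among 14 purinergic receptors and ectonucleotidases 6 rose and 6 fell. Adenosine receptors rose (Adora2a 3.49, Adora2b 2.29), and among receptors for ATP and ADP P2ry1 (−2.42) fell. In the circadian clock 10 of 18 genes fell, with Npas2 (−2.36) lowest, and 7 rose, with the repressor Nfil3 (1.29) highest. Among 27 integrin, adhesion and cytoskeletal genes 17 rose and 8 fell (10 and 13 after quantile normalization). The bundling protein Fscn1 rose by 3.74 and the nuclear lamin Lmna fell by 1.46. In the unfolded protein and integrated stress response 15 of 22 genes rose and 2 fell (13 and 6 after quantile normalization), with a median of 0.43. Chac1 (1.40) rose most and Eif2ak3 (−0.34) fell most, the latter with overlapping groups. Further genes named by the same rule were Pik3ap1 (1.50), Psma6 (1.58) and Rrs1 (0.71), which rose, and Wdr12 (−0.52) and Apoc1 (−0.63), which fell.

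The net change at 9 hr differed from the largest change reached on the way. Shares of a change left at 9 hr are ratios of log2 differences, here and below. For a rise past its peak the share left on a linear scale is smaller. Of the 1120 genes higher by at least 1, the highest WT mean fell on 6 hr in 723 genes and on 9 hr in 246, with 120 and 31 genes highest at 3 and 1 hr, and a median of 80.0% of the largest change was left at 9 hr. Of these genes 180 (16.1%) were already past 1 at 1 hr, 723 (64.6%) at 3 hr and 1027 (91.7%) at 6 hr. Of the 1411 genes lower by at least 1, 701 had their lowest mean at 9 hr and 672 at 6 hr, a median of 99.6% of the largest change was left, and 221 (15.7%) had not reached −1 at 6 hr. Both sets were chosen by their change at 9 hr, which favours changes that were kept. Of 448 genes that had fallen by at least 2 at 1, 3 or 6 hr, 400 (89.3%) were lower by at least 1 at 9 hr and 13 were within 0.5 of their untreated level. These are descriptions of the means of the same 4 animals, with no test.

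Genes highest at 1 hr kept part of their rise. Tnf, with a mean of 16.84 at 1 hr, retained 41.7% of its largest log2 change (1.82 of 4.36), Cxcl2 26.8% and Cxcl1 14.6%. Il6 was highest at 6 hr, with a mean of 12.46, and retained 45.1%. Cxcl1 went from 8.97, 8.89, 8.97 and 8.91 over 14.49, 13.96, 14.67 and 14.44 at 1 hr to 9.69, 9.97, 9.67 and 9.59 at 9 hr, still without overlap. Nos2 retained 70.5% of its change at 6 hr, Ptgs2 54.1%, Cxcl10 50.5% and Il1rn 95.3%. Saa3, Lcn2, Hp, Ptges, Cfb, Marco, Fpr1 and Mmp14 were highest at 9 hr. In 69 genes less than 50% was left, and in 42 of these animal 69 was the highest library at 9 hr.

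Of 788 genes that had risen by at least 2 at some time, 40 were within 0.5 of their untreated level at 9 hr and 16 were called lower. The examples that follow were chosen after their values were seen, as were list members named above beyond the largest rise and fall of each list. Gdf15, a stress-induced cytokine, had a mean of 8.67 untreated, 12.74 at 1 hr and 8.93 at 9 hr (difference 0.26, SE 0.115, adjusted p 0.0612). Egr1 had 7.81, 11.88 and 7.85 (0.04, adjusted p 0.709), and Cd83, a maturation marker, 11.52, 15.09 and 11.49 (−0.03, adjusted p 0.733). Egr2, Egr3, Fosb and Id3 were among the 16 that ended below their start. Of the 120 genes that had risen by at least 2 at 1 hr, 63 (52.5%) were higher by at least 1 at 9 hr, 11 were lower and 9 were not called.

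**Figure D4:**
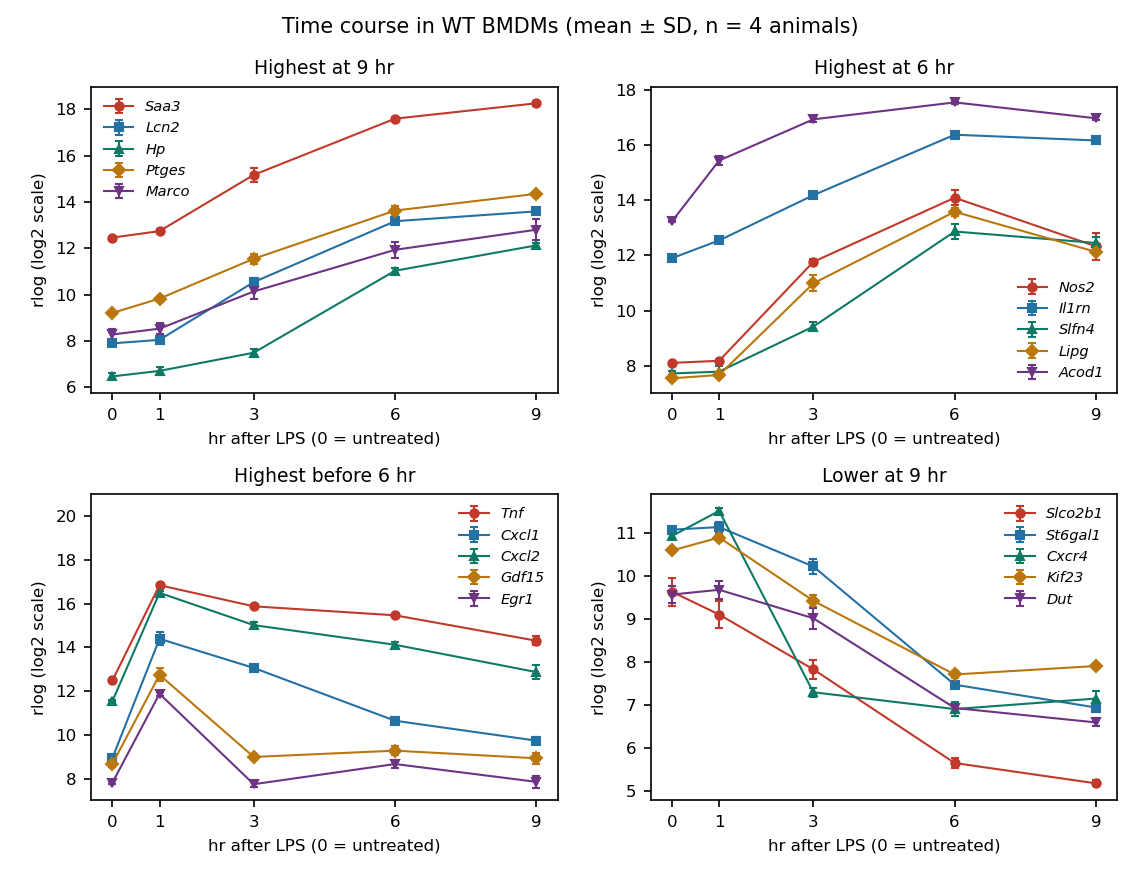
Mean rlog (log2 scale) of 20 genes in WT BMDMs at 0, 1, 3, 6 and 9 hr of LPS, with bars of ± SD over 4 animals, in panels for genes highest at 9 hr, at 6 hr or before 6 hr and for genes that fell. Tnf, Cxcl1, Cxcl2, Gdf15 and Egr1 return toward their start by 9 hr, Saa3 climbs from 12.46 to 18.26, and Slco2b1 declines from 9.63 to 5.18.

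The libraries labelled Cpeb4-/- were then set beside the WT ones. Cpeb4 itself does not separate the genotypes at these times: it was 8.13, 7.88, 7.03 and 7.81 in untreated WT (animals 25, 69, 87 and 88) and 7.42, 7.87, 6.88 and 7.74 in untreated libraries labelled Cpeb4-/- (animals 2, 3, 55 and 62), and after 9 hr 8.97, 8.94, 8.89 and 9.41 against 7.87, 9.27, 8.83 and 9.02. Whether reads fall outside the deleted part was not tested, so the labels could not be checked on this gene. The study examined the CPEB4 protein of WT and Cpeb4-/- BMDMs by immunoblot, which mRNA values cannot replace. All 1120 genes higher by at least 1 in WT were called higher in the libraries labelled Cpeb4-/-, and 1403 of the 1411 lower ones (99.4%) were called lower, with no call in the opposite direction, where 4714 and 4795 of the 13077 genes were called higher and lower. Across the 13077 genes the changes had a Pearson r of 0.975 and a slope of 0.949. Genes are not independent replicates, and the genotypes share no animals.

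The difference between the changes was tested for each gene by the interaction of genotype and time, which called 203 genes (1.55% of those tested), 130 with a higher change in the libraries labelled Cpeb4-/- and 73 with a lower one. In 32 of the 203 the fitted changes of the genotypes had opposite signs. The count of 203 depended on single animals: it was 50 without animal 62, 66 without animal 25, 67 without animal 3, 111 without animal 69, 124 without animal 88 and 351 without animal 2. Without the animal as a block it was 117. Siglece, an inhibitory sialic acid receptor, rose by 2.76 in WT and by 1.42 in the libraries labelled Cpeb4-/- (difference −1.34, SE 0.0915, limma adjusted p 5.90e-05), but it was already at 7.33 to 8.03 in untreated WT and at 5.31 to 5.55 in the other untreated libraries. Arg1, an arginase, rose by 1.83 and 3.62 (difference 1.79, SE 0.221, adjusted p 0.00336). Klra1 fell by 2.71 in WT, from 4.40, 4.44, 4.13 and 4.62 to 1.62, 1.40, 2.14 and 1.60, and was at 1.22 to 1.73 in the untreated libraries labelled Cpeb4-/-, where its change was 0.05. The difference was 2.76 (SE 0.282, adjusted p 0.00108), and the genotypes were thus apart for Klra1 before LPS. Only the untreated WT values of Klra1 were above the filter level of 2.32. In the libraries labelled Cpeb4-/- it had little room to fall, so its interaction cannot tell a different response from a lower start. The untreated values of the genotypes did not overlap in 59 of the 203 genes (29.1%), against 10.5% of all genes tested. These untreated values also enter the interaction, which favours such genes among the 203.

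Klra17 (−1.77 in WT and 0.09 in the other genotype) was likewise apart before LPS. It was at 4.55 to 5.27 in WT and at 2.01 to 2.76, around the filter level, in the other libraries. Klra1 and Klra17 belong to a family with near-identical members. Cxcl3 (1.54 and 2.97) and Dennd3 (0.61 and 1.96) rose more in the libraries labelled Cpeb4-/-, and Slc13a3 (2.85 and 1.16), Shisa3 (4.01 and 2.63), Urah (2.34 and 1.10) and Cxcl9 (4.14 and 3.04) rose less. The untreated WT SD was far below counting error for Shisa3 (0.00539 against 0.198), Cxcl3 (0.0211 against 0.108) and Urah (0.0899 against 0.636). Such an SD is not a measure of the spread between animals. Urah had an untreated WT mean of 2.36, close to the filter level. Slc13a3 was at 6.84 to 7.30 in untreated WT and at 4.97 to 5.16 in the other untreated libraries. Of 11 alternative settings the difference lost its call in 2 for Dennd3 (no replicate block, adjusted p 0.242, and without animal 3, 0.057), in 1 for Cxcl3 (eBayes without trend, 0.053) and in 1 for Urah (without animal 62, 0.0552). Of the genes with the largest net change in WT, Lcn2 (−0.38), Slamf1 (−0.73) and Cxcr4 (0.63) also had a called difference between the genotypes, smaller than the change itself. The call was lost in 4, 7 and 4 of the 11 settings, eBayes without trend among them for each. Saa3 (−0.20, SE 0.131, adjusted p 0.558) had no called difference.

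**Figure D5:**
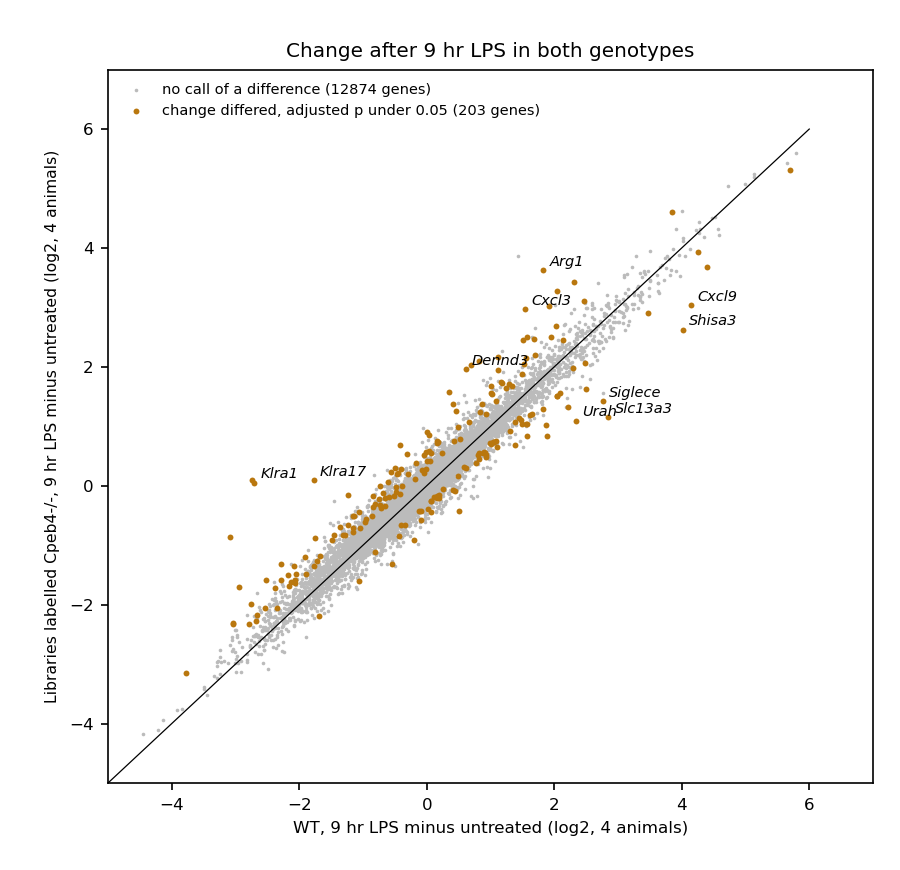
Change after 9 hr of LPS (log2) in WT BMDMs (horizontal axis, 4 animals) and in the libraries labelled Cpeb4-/- (vertical axis, 4 animals) for the 13077 tested genes, with the line of equality. The points follow the line with a slope of 0.949, and the 203 genes in orange have an interaction with an adjusted p under 0.05, Klra1 and Klra17 far above the line at the left and Siglece, Slc13a3 and Urah below it at the right.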

How the data were processed

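BMDM libraries were made by the authors from poly(A) RNA with 8 PCR cycles. Per the submitters' processing notes, reads were aligned to mm10 with STAR 2.3.0e, counted per gene with featureCounts and transformed with DESeq2. The authors deposited rlog values, which are on a log2 scale and corrected for library size, for 27179 genes and 40 libraries. There were 0 value columns left unused. Whether the counting used strand is not given in the sources used here, so reads of overlapping antisense genes cannot be told apart.

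The values were used as deposited. Genes were kept where the mean over the 8 WT libraries reached 2.32 (13077 genes), and 12744 of these were matched by gene ID to RefSeq GRCm38.p6 for names of 958 rows without a symbol, biotypes and coordinates. The 9 hr and untreated libraries entered a linear model of limma (version 3.58.1, under R 4.3.3) with a mean-dependent variance prior (eBayes, trend) and the animal as a fixed block. Tests were two-sided, with Benjamini-Hochberg adjustment over all genes tested. The study's methods state no test of time for single genes. An exact paired permutation test of 4 animals cannot give a p below 0.125 and was not used. The pairing comes from the animal number in the labels. Deviations from the group means correlated between the libraries of an animal at 0.174 to 0.318 (4 pairs) and between those of different animals at −0.373 to 0.191 (12 pairs). The genotype by time interaction was tested over 16 libraries in the same way. Tables and figures were made with Python 3.11.15, numpy 2.4.6, pandas 2.3.3 and matplotlib 3.10.9. The fits were tested on simulated data.

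Named genes were the 15 largest rises and falls with no overlap between groups, textbook LPS genes and genes the study names, the largest called rise and fall of each of 47 gene lists and the 5 largest interactions in each direction, without clone names and pseudogenes. The lists rest on textbook knowledge of each process. The members and lists were chosen with earlier results of these data known. Each replicate is a separate animal per the labels. Alternatives were other filters, no block, eBayes without trend or robust, median centring, quantile normalization, all 20 WT libraries, each batch alone and leaving out each animal. Some genes of the lists and of the named genes are not reported here by name.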

Additional observations from a re-analysis of the deposited data

Results flagged for a closer look

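In 14 of 280 groups of 4 libraries (140 named genes, both conditions) the library farthest out stood apart from the other 3 by Dixon's criterion, which chance gives in about 1 group in 20. At 9 hr the highest library was 13.33 for Cxcl2 (the others 12.69 to 12.73), 12.09 for Ier3 (11.69 to 11.74), 10.46 for Nfil3 (10.23 to 10.26), 9.409 for Cpeb4 (8.89 to 8.97), 10.25 for Gapdh (10.08 to 10.11) and 7.751 for Nlrp1b (7.61 to 7.62). The library of Cxcl2, Ier3 and Nfil3 was that of animal 69. The lowest library at 9 hr was 6.83 for Lifr (6.95 to 6.97) and 10.24 for Rrs1 (10.40 to 10.41). In untreated BMDMs the lowest library was 10.92 for Hpgd (11.09 to 11.11), 8.759 for Il10 (8.94 to 8.97) and 4.447 for Rpl24 (4.87 to 4.90). The highest untreated library was 9.494 for Slc7a2 (9.38 to 9.40), 9.798 for Rrs1 (9.60 in the others) and 7.399 for Adora2a (7.28 to 7.30).

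Among the named genes, 19 had a change after 9 hr that differed between the genotypes by the interaction test of limma (adjusted p under 0.05). The change in libraries labelled Cpeb4-/- less the change in WT was 2.76 for Klra1, 1.863 for Klra17, 1.792 for Arg1, 1.426 for Cxcl3 and 1.345 for Dennd3. It was 0.631 for Cxcr4, 0.5706 for Cx3cr1, 0.5675 for Mef2c and 0.4738 for Bmf, all genes that fell in WT. It was −1.691 for Slc13a3, −1.387 for Shisa3, −1.339 for Siglece, −1.249 for Urah and −1.1 for Cxcl9. It was −0.7305 for Slamf1, −0.5172 for Tnf, −0.3836 for Lcn2, −0.334 for Il1rn and −0.3079 for Eif4g2, all genes that rose in WT. Several of these calls were unstable: over 11 alternative settings the call was lost in all 11 for Eif4g2, in 10 for Il1rn, in 7 for Slamf1, in 6 for Bmf, in 5 for Tnf, in 4 each for Lcn2 and Cxcr4, in 2 for Dennd3 and in 1 each for Cx3cr1, Mef2c, Cxcl3 and Urah. In Klra1, Klra17, Siglece, Slc13a3 and Cxcl3 the untreated values of the genotypes did not overlap, though the means of Cxcl3 were close (7.49 in WT and 7.57 in the other libraries).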

How the results depend on the processing

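The counts of genes higher and lower at 9 hr stayed within 1.5 times the reported ones under each alternative other than the size threshold: 3863 (batch 2 alone) to 5931 (median centring) higher, against 4931, and 3972 (batch 2 alone) to 4970 (no filter) lower, against 4944. Leaving out each animal gave 4513 to 4788 higher and 4545 to 4804 lower, and with a difference of at least 1, 1109 to 1155 and 1393 to 1433. With a threshold of 0.5 in place of 1 there were 2536 and 3001 genes, and with 2 there were 337 and 297. The interaction count of 203 was less stable: it was 103 with eBayes without trend (89 shared), 117 with no replicate block (112 shared) and 50 to 351 when 1 animal was left out, with 49 of the 50 and 192 of the 351 shared. The cause was not tested. Quantile normalization gave 186 (163 shared).

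Of 1948 settings over 140 named genes, 1934 kept the direction and the side of the threshold, 10 lost the call, 1 gained it and 3 changed sign. Egr1, not called at 0.04, was −0.0622 in batch 2 alone, −0.05912 to 0.1422 when 1 animal was left out and 0.2946 after quantile normalization, where it was called. Atp5b, called at 0.51, was −0.07728 after quantile normalization. The 10 lost calls were of Il10 (4 settings), Dennd3 (3), Csf1r, Tslp and Apoc1. Without the replicate block 4811 genes were higher and 4800 lower, and of the named genes only Dennd3 lost its call. For the genotype differences of 19 named genes 156 of 209 settings kept the call. Of 1316 counts over gene lists 65 moved by more than 1.5 times. Depth is not known, and rlog values limit what can be said of genes at low counts.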

Other observations

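Animal 69 of batch 2 had the highest library at 9 hr for 526 of the 1120 genes higher by at least 1, against 122 for animal 25, 147 for animal 87 and 325 for animal 88. Without LPS the same genes were highest in 265, 260, 289 and 306 cases in animals 25, 69, 87 and 88. At 9 hr it was the highest animal for 15 of 22 pro-inflammatory cytokines, 8 of 13 CC chemokines and 8 of 10 CXC chemokines, and for 1 of 35 genes of G2 and mitosis, where animal 87 was highest for 33. Without LPS, animal 25 was the highest for 23 of these 35 genes.

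Genes that were lower by at least 2 at 9 hr had the mirror image of the spread described for the rises. In the 9 hr group 35 of 297 (11.8%) had a standard deviation below 0.25 times the counting error at the printed level, and 1 of 297 (0.337%) in the untreated group, against 2.81% and 2.49% of all tested genes. For genes higher by at least 2 the shares were 0.890% at 9 hr and 16.6% without LPS. In both sets the narrow spread was thus on the side of the lower level.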
